A study of Mus musculus with 18 samples.

Results

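The 10 genes described here encode the machinery by which the sarcoplasmic reticulum of the heart muscle cell releases, stores and takes back calcium, together with the exchanger that moves calcium out of the cell: Ryr2, Trdn, Casq2, Jph2, Hrc, Atp2a2, Pln, Sln, Slc8a1 and Camk2d. They were taken by symbol from a table of 24419 genes, and all 10 were found in it. The genes were measured by RNA sequencing of polyadenylated RNA from hearts of male C57BL/6 mice aged 8 weeks, anaesthetised with sodium pentobarbital. Acute myocardial infarction (AMI) was produced by tying off the left anterior descending artery near its origin, the vessel that feeds the front wall and the apex of the left ventricle. There were 18 mice in 6 groups of 3: a control group, which the study calls sham, and 5 AMI groups, in which the heart was collected either 10 min or 1 h or, for the later groups, 6 h, 24 h or 72 h from ligation. By the study's account, the sampled tissue was infarcted left ventricle, so each value is an average over surviving muscle, dead muscle and the cells that enter the wound. Every AMI group was compared with the same 3 sham mice, and the 5 comparisons with sham therefore share their controls.

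At each heartbeat, calcium that enters through L-type channels opens the ryanodine receptor RYR2, and the calcium store in the sarcoplasmic reticulum empties onto the myofilaments. Relaxation follows when the pump SERCA2a, encoded by Atp2a2, returns calcium to the store, and when the sodium-calcium exchanger NCX1, encoded by Slc8a1, carries the remainder out of the cell. Phospholamban and sarcolipin, small membrane proteins encoded by Pln and Sln, slow the pump, and Sln is known in the mouse heart as a gene of the atria.

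Expression values are FPKM (fragments scaled to transcript length in kilobases and to the mapped fragments of the library), which the authors estimated for every gene. Because FPKM is scaled by transcript length, the levels of different genes can be set side by side. Changes are log2 fold changes of FPKM + 1, with their standard error (SE), and a gene is said to have risen or fallen where limma gave an adjusted p under 0.05 over all genes tested. Tests ran over the 13333 genes with at least 1 FPKM in at least 1 mouse, less those constant among the mice compared, and all 10 members were among the 13333, although Sln passed through a single mouse.

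The members that inhibit the pump have short coding sequences, which are shown because Pln fell after infarction while Sln was listed near 0 in nearly all mice. Capitals mark the start and stop codons of the GENCODE M21 transcripts.
Pln (coding sequence): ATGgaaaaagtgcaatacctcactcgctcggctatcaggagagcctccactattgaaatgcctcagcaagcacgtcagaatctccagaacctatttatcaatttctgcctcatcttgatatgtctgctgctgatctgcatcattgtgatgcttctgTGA
Sln (coding sequence): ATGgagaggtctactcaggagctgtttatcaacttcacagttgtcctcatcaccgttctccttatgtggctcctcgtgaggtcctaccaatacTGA
The coding sequence of Pln had 159 bases and that of Sln 96 bases. Over whole transcripts the longest run of bases shared by these genes was 13, against reads of 150 bases.

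The stretch before the start site is shown for Hrc, which had the largest fall of the members, and for Slc8a1, which rose, in the 250 bases upstream of the RefSeq start (GRCm38.p6). Capitals mark matches, on either strand, to the E-box CANNTG and to the GATA motif GATAA.
Hrc (chr7:45335019-45335268, plus strand): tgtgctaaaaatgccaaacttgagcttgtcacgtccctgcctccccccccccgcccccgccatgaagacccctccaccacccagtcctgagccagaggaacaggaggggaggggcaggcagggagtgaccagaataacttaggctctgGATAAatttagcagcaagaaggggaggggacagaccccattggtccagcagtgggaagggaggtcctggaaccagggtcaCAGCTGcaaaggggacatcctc
Slc8a1 (chr17:81738388-81738637, minus strand): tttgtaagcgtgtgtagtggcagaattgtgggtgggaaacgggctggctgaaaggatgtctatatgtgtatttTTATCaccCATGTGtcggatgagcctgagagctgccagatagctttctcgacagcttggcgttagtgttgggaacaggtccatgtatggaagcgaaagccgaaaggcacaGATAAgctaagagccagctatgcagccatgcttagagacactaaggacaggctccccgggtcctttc
RefSeq windows were given for 7 of the 10 members. Of these, 6 held an E-box and 3 held GATAA (Hrc, Pln and Slc8a1), against 66.2% and 22.6% of 32851 windows of the same length for all genes. A MEF2 motif was present in 1 of the 7, Casq2, against 2.92% of all windows. Neither CATTCC, the TEAD motif, nor the CArG box was found in the 7 members, against 12.6% and 1.47% of all windows. The windows of Hrc and Slc8a1 thus carried the same kinds of motif, although the genes moved in opposite directions, and a match marks letters only.

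In the sham heart the members spanned a wide range of levels. The pump gene Atp2a2 led at 3965 ± 52.9 FPKM (SD, n = 3), the 12th highest mean of all genes in the table, followed by Ryr2 at 1816 ± 119.6, Pln at 1591 ± 34.3 and Hrc at 1343 ± 67.6. Casq2 stood at 385 ± 18.0, Jph2 at 199.6 ± 41.6 and Trdn at 69.7 ± 5.24 FPKM. The exchanger Slc8a1 and the kinase gene Camk2d were lowest of the expressed members, at 26.2 ± 1.82 and 15.1 ± 0.381 FPKM. Sln was listed at 0, 0.051 and 0.105 FPKM in the 3 sham mice, each below 1 FPKM.

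**Figure D1:**
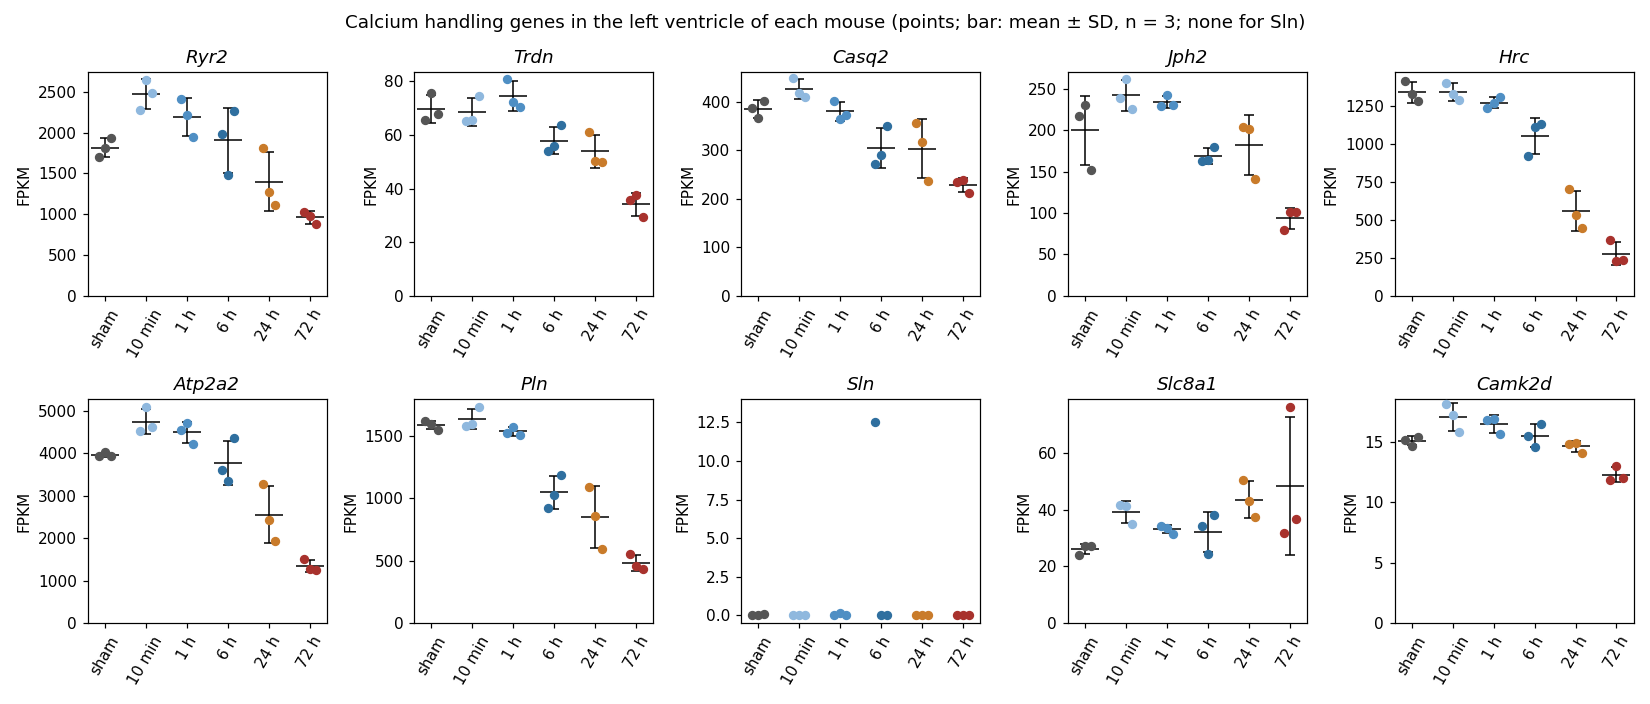
FPKM of each of the 10 genes (vertical axes, from 0 for all but the Sln panel) in every mouse, by group (horizontal axes). Points are mice and black bars the mean ± SD of 3 mice, omitted for Sln. Hrc, Pln and Atp2a2 descended to 279, 484 and 1347 FPKM at 72 h, Slc8a1 lay above all sham mice at 24 h and 72 h, and Sln was high in a single mouse at 6 h.

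The course after ligation was in the main a late fall. No member passed the test in either direction at 10 min or 1 h. Pln, Casq2 and Hrc had fallen by 6 h, Atp2a2, Pln, Hrc and Trdn had fallen and Slc8a1 had risen by 24 h, and by 72 h 8 members had fallen and Slc8a1 had risen. The largest fall was that of Hrc, to 20.8% of the sham mean, and the smallest that of Camk2d, to 81.4%. In this bulk tissue, fewer heart muscle cells and less RNA per cell cannot be told apart. Cell type markers changed over the same time: at 72 h all 12 sarcomere genes of the muscle cell were lower than in sham. All 12 leukocyte and all 9 fibroblast markers were higher. The summed FPKM of the sarcomere genes fell from between 70758 and 75274 in sham to between 24947 and 32335 at 72 h, while the leukocyte sum went from between 204 and 228 to between 3685 and 4790.0 FPKM. The part of these markers in the members' changes was not tested, apart from the comparison with the sarcomere genes given further on. Of the other marker lists, 3 of 7 endothelial genes were lower and 1 higher at 72 h, 3 of 6 smooth muscle genes were lower and 3 higher, 1 of 5 tested atrial genes was lower and 2 higher, and 1 of 3 tested skeletal muscle genes was higher.

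Against this stands the background of all genes. At 72 h, 24.2% of all genes tested were lower and 53.1% were higher than sham, and 8 of 10 members were lower and 1 higher. At 24 h, 11.4% of genes were lower and 26.2% higher, against 4 and 1 of the 10 members. At 6 h, 16.8% were lower and 11.6% higher, against 3 and 0 members. The median log2 fold change of the members at 6 h, 24 h and 72 h was -0.15, -0.37 and -0.97, and that of all genes tested was -0.08, 0.13 and 0.29. Median-of-ratios scaling lowered the median of all genes at 72 h from 0.29 to 0.03 and quantile normalization to -0.12. The 8 falls at 72 h passed the test under each of these scalings and without any single mouse. The count of lower members at 24 h was 1 without any single sham mouse and 2 when 24 h mouse 2 was left out. The 6 h count dropped to 1 without sham mouse 1 or mouse 2, and without 6 h mouse 2 a member, Slc8a1, was higher.

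**Figure D2:**
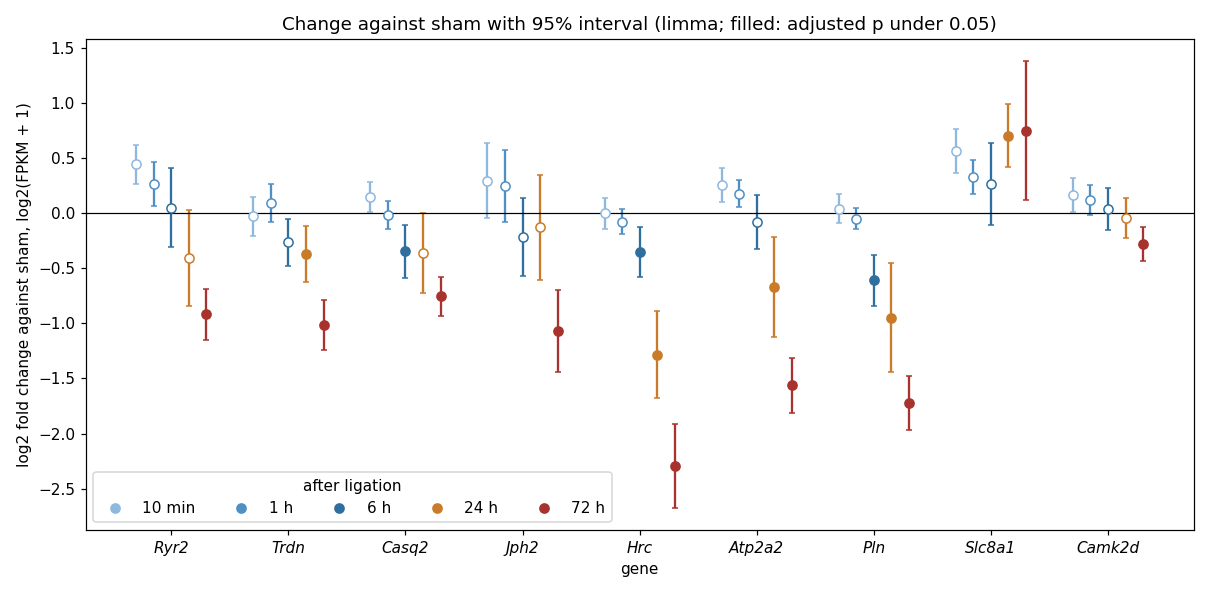
Log2 fold change against sham (vertical axis) of the 9 members other than Sln (horizontal axis) at each time after ligation, with its 95% interval from limma. Filled points have an adjusted p under 0.05. The points of Hrc, Pln and Atp2a2 reach -2.29, -1.72 and -1.56 at 72 h, and those of Slc8a1 lie above 0 throughout.

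Of the genes of calcium release, Ryr2 (chr13:11553102-12106945, minus strand) encodes the release channel itself. Its FPKM were 1698, 1811 and 1937 in sham, 2278, 2647 and 2489 for 10 min, 2411, 2222 and 1944 for 1 h, 1982, 1476 and 2264 for 6 h, 1809.9, 1274 and 1114 for 24 h and 1034, 974 and 878 for 72 h. All mice at 10 min and 1 h lay above all sham mice, the mice at 6 h and 24 h overlapped with sham, and those at 72 h lay below every other mouse in the study. The difference from sham was 0.44 (SE 0.0767) at 10 min with an adjusted p of 0.0717 in limma, and -0.92 (SE 0.101) at 72 h with an adjusted p of 4.35e-05. In the order of group means, 10 min came first, then 1 h, 6 h, sham, 24 h and 72 h, and no pair of neighbours in that order passed the test. The 24 h and 72 h mice did not overlap, with an adjusted p of 0.0656.

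Trdn (chr10:33080554-33476709, plus strand) encodes triadin, which anchors calsequestrin to the release channel. It was measured at 65.8, 75.7 and 67.7 FPKM in sham, 65.3, 65.7 and 74.5 for 10 min, 81.0, 72.3 and 70.6 for 1 h, 54.0, 56.0 and 63.8 for 6 h, 61.2, 50.4 and 50.1 for 24 h and 35.7, 37.5 and 29.3 for 72 h. The mice from 6 h onward were all below sham. Trdn fell at 24 h (-0.37, SE 0.108, adjusted p = 0.0348 by limma) and at 72 h (-1.01, SE 0.101, adjusted p = 2.28e-05), and the 6 h value of -0.26 had an adjusted p of 0.0692. The call at 24 h was lost without any single sham mouse or without mouse 2 or mouse 3 at 24 h (adjusted p from 0.0563 to 0.128). By successive steps it fell from 1 h to 6 h by 0.36 and from 24 h to 72 h by 0.64, and 6 h and 24 h did not differ in the test (adjusted p = 0.571).

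Casq2 (chr3:102086415-102146514, plus strand) encodes cardiac calsequestrin, the main calcium buffer inside the store. The sham mice had 388, 366 and 402 FPKM, followed by 449.8, 419 and 410.1 for 10 min, 402, 365 and 374 for 1 h, 272, 291 and 351 for 6 h, 356, 318 and 237 for 24 h and 235, 238 and 211 for 72 h. The 10 min mice were above sham and the mice at 6 h, 24 h and 72 h below it, without overlap. Casq2 fell at 6 h (-0.34, SE 0.103, adjusted p = 0.044 by limma) and at 72 h (-0.75, SE 0.0776, adjusted p = 2.87e-05), whereas the 24 h difference of -0.36 (SE 0.153) had an adjusted p of 0.0997. The 6 h call was lost when any sham mouse, or mouse 1 or mouse 2 at 6 h, was left out, with adjusted p from 0.0887 to 0.142, and under median-of-ratios scaling (0.0681) or without the filter on low genes (0.0703). No pair of neighbouring group means of Casq2 differed in the test.

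Jph2 (chr2:163336242-163397993, minus strand) encodes junctophilin-2, which ties the store to the T-tubule membrane so that L-type channels face the release channels. Its levels were 217, 229.8 and 152 FPKM in sham, 239, 261 and 225 for 10 min, 229, 242 and 229.8 for 1 h, 163, 165 and 180.2 for 6 h, 204, 201 and 141 for 24 h and 79.3, 101 and 101 for 72 h. The 72 h mice lay below all others, while the wide sham group, with mouse 3 far below mice 1 and 2, overlapped with the 6 h and 24 h mice. Jph2 fell at 72 h by 1.07 (SE 0.162, limma adjusted p = 0.000311). It also fell from 1 h to 6 h by 0.46 and from 24 h to 72 h by 0.94, and the 24 h mean of 182 ± 35.8 FPKM did not differ in the test from the 6 h mean of 169 ± 9.52 (adjusted p = 0.721). Without sham mouse 3 the 6 h difference from sham passed the test as well (-0.40, adjusted p = 0.0395).

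Hrc (chr7:45335290-45338974, plus strand) encodes the histidine-rich calcium-binding protein of the store lumen, which binds triadin and the pump. It had 1416, 1328 and 1283 FPKM in sham, 1406, 1331 and 1290.0 for 10 min, 1241, 1269 and 1309.9 for 1 h, 920.5, 1115 and 1131 for 6 h, 703, 533 and 445 for 24 h and 366, 231 and 239 for 72 h. The groups separated step by step from 6 h onward, with no overlap between 1 h, 6 h, 24 h and 72 h. Relative to sham Hrc fell at 6 h (-0.35, SE 0.0971, limma adjusted p = 0.0338), at 24 h (-1.28, SE 0.168, adjusted p = 0.00444) and at 72 h (-2.29, SE 0.165, adjusted p = 3.15e-06). The 6 h call was lost without any single sham mouse (adjusted p from 0.0807 to 0.129), under median-of-ratios scaling (0.095) and without the filter on low genes (0.0653). Hrc was the member that fell between 6 h and 24 h, by 0.93 (SE 0.187, adjusted p = 0.0261), a call that was lost without 24 h mouse 2 or without any 6 h mouse (adjusted p from 0.0596 to 0.0975). Sham, 10 min and 1 h could not be separated.

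Of the genes of calcium uptake, Atp2a2 (chr5:122453513-122502225, minus strand) encodes SERCA2, the pump of the store. The values were 3931, 4026 and 3937 FPKM in sham, 4527, 5084 and 4622 for 10 min, 4554, 4716 and 4216 for 1 h, 3613, 3340.0 and 4354 for 6 h, 3270.2, 2441 and 1938 for 24 h and 1513, 1284 and 1244 for 72 h. All mice at 10 min and 1 h were above all sham mice, and all mice at 24 h and 72 h below. The early differences of 0.26 (SE 0.0647) and 0.18 (SE 0.0523) had limma adjusted p of 0.155 and 0.253. Atp2a2 fell by 0.67 (SE 0.192, adjusted p = 0.033) at 24 h and by 1.56 (SE 0.110, adjusted p = 2.77e-06) at 72 h, where it had 34.0% of the sham level. The 24 h call was lost without any single sham mouse or without 24 h mouse 2 (adjusted p from 0.0770 to 0.104), under quantile normalization (0.131) and without the filter on low genes (0.083). The step from 24 h to 72 h was a fall by 0.89 (adjusted p = 0.0109), and the other neighbouring means did not differ in the test.

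Pln (chr10:53337667-53345987, plus strand) encodes phospholamban, which holds the pump back until it is phosphorylated. Its exons share 141 bases with Cep85l on the other strand, a gene that reached at most 4.14 FPKM, and 1644 with Gm47644, which was not analysed here. Where reads were counted without strand, such pairs cannot be told apart, which holds also for 296 bases of Slc8a1 and 83 of Atp2a2 shared with opposite-strand transcripts. The mice had 1620.2, 1599 and 1553 FPKM in sham, 1580.3, 1599 and 1731 for 10 min, 1528, 1575 and 1510.4 for 1 h, 924, 1030.3 and 1190.2 for 6 h, 1092, 858 and 597 for 24 h and 558, 457 and 437 for 72 h. The 9 early mice lay between 1510.4 and 1731 FPKM and the 9 mice from 6 h onward at or below 1190.2 FPKM, so that Pln separated at 6 h without overlap. Pln fell by 0.61 (SE 0.0989, limma adjusted p = 0.0059) at 6 h, by 0.95 (SE 0.209, adjusted p = 0.0156) at 24 h and by 1.72 (SE 0.107, adjusted p = 1.31e-06) at 72 h. The 24 h call was lost without any single sham mouse, with adjusted p from 0.0535 to 0.063. Between 1 h and 6 h Pln fell by 0.56, between 24 h and 72 h by 0.77, and 6 h and 24 h overlapped (adjusted p = 0.305).

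Sln (chr9:53850164-53854560, plus strand) encodes sarcolipin. It was listed at 0 in 12 mice and at no more than 0.132 FPKM in 5 others, and it stood at 12.5 FPKM in mouse 1 at 6 h, so that no group of mice differed from sham by limma. The same mouse had 63.0 FPKM of Myl4, 18.7 of Myl7, 4.77 of Mybphl and 2.48 of Bmp10, genes marking the atrial muscle cell, against at most 2.89, 0.490, 0.290 and 0 in the other 17 mice. Among all genes, 6 with at least 1 FPKM in this mouse were more than 10-fold above every other mouse: these 4, Sln and the histone gene Hist2h2aa2. The atrial list has 2 further genes, Kcnj3 and Nppa, which were at 12.2 and 851 FPKM there and within the range of the other mice. The part of atrial RNA in the Sln value was not tested. Without this mouse Casq2 was no longer called at 6 h, and the calls of Pln and Hrc at 6 h were kept.

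**Figure D3:**
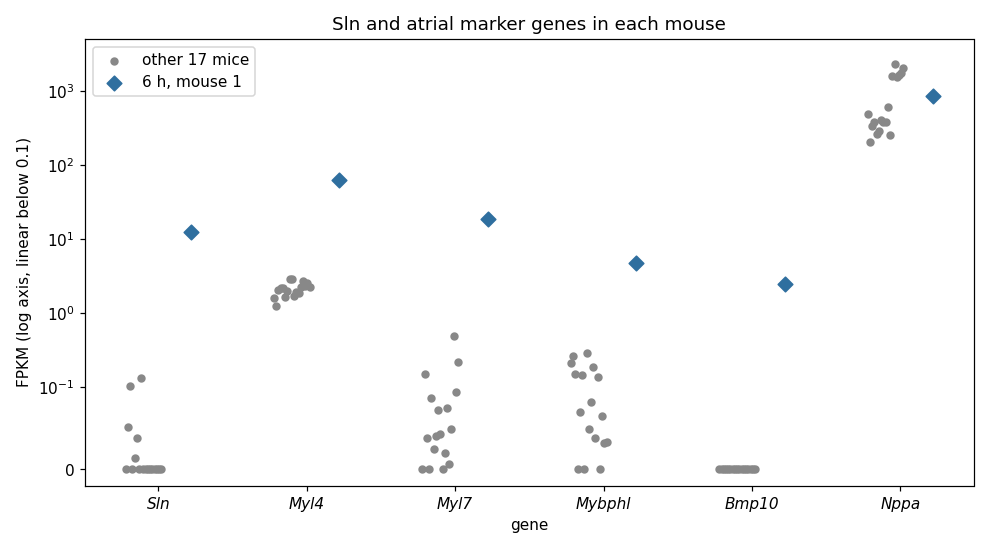
FPKM (vertical axis, logarithmic above 0.1 and linear below) of Sln and 5 genes of the atrial list (horizontal axis). The diamond is mouse 1 at 6 h and the grey points are the other 17 mice. The diamond stands alone for Sln (12.5 FPKM), Myl4 (63.0), Myl7 (18.7), Mybphl (4.77) and Bmp10 (2.48) and falls within the range of the other mice for Nppa (851).

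Slc8a1 (chr17:81373105-81738377, minus strand), the gene of the exchanger, went against the other members. It had 24.1, 27.3 and 27.1 FPKM in sham, 41.5, 41.2 and 34.8 for 10 min, 34.4, 33.5 and 31.4 for 1 h, 34.3, 24.3 and 37.9 for 6 h, 50.3, 42.8 and 37.5 for 24 h and 31.7, 76.3 and 36.7 for 72 h. All mice of the 10 min, 1 h, 24 h and 72 h groups were above all sham mice, and 1 of 3 mice at 6 h was not. Slc8a1 rose at 24 h by 0.70 (SE 0.122, limma adjusted p = 0.00794) and at 72 h by 0.75 (SE 0.275, adjusted p = 0.033). The wide 72 h group of 48.2 ± 24.4 FPKM had mouse 2 far above the others, and without it the rise was 0.37 (adjusted p = 0.00665). The call at 72 h was lost without any single sham mouse (adjusted p from 0.0613 to 0.0832), under median-of-ratios scaling (0.44, adjusted p = 0.161), under quantile normalization (0.52, adjusted p = 0.139) and without the filter on low genes (adjusted p = 0.0787). The 24 h call was kept in each of these. None of the neighbouring means of Slc8a1, in the order 72 h, 24 h, 10 min, 1 h, 6 h and sham, differed in the test.

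Camk2d (chr3:126596302-126846326, plus strand) encodes the delta form of the calmodulin-dependent kinase II, which phosphorylates the release channel and phospholamban. The kinase gene was at 15.1, 14.7 and 15.4 FPKM in sham, 18.1, 17.2 and 15.8 for 10 min, 16.8, 16.9 and 15.6 for 1 h, 15.5, 14.5 and 16.5 for 6 h, 14.8, 14.9 and 14.1 for 24 h and 11.8, 13.0 and 11.98 for 72 h. Its groups kept within a narrow band until 24 h, and the 72 h mice lay below all others. Camk2d fell at 72 h by 0.28 (SE 0.0669, limma adjusted p = 0.00468), the smallest fall among the members, and no pair of neighbouring means differed in the test. The table does not resolve the splice forms of this kinase.

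Soon after ligation several members stood above sham without passing the test. At 10 min, 5 members (Ryr2, Atp2a2, Casq2, Slc8a1 and Camk2d) had higher means and an unadjusted p under 0.05, and 0 members passed the adjusted test in limma. Among all genes, 0.248% were higher and 0.0978% lower at 10 min. An unadjusted p under 0.05, in either direction, was found for 1955 of 13297 genes. Ryr2 and Slc8a1 came nearest, with adjusted p of 0.0717 and 0.0567, and both passed with a filter on the mean FPKM in place of the highest value (adjusted p of 0.0488 and 0.0387). At 1 h, 0 members passed, Ryr2, Atp2a2 and Slc8a1 had an unadjusted p under 0.05, and 0.669% of all genes were higher and 0.0526% lower, with 1673 genes at an unadjusted p under 0.05. From 10 min to 1 h again 0 members passed, with 0.391% of all genes higher and 0.211% lower. Casq2 and Slc8a1 had an unadjusted p under 0.05 in that step, both with lower means at 1 h, as had 1739 of all genes.

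The later steps placed the falls in time. From 1 h to 6 h Pln, Jph2 and Trdn fell, 3 members, against 11.2% of all genes lower and 9.32% higher. From 6 h to 24 h Hrc fell, 1 member, against 1.94% lower and 12.5% higher. From 24 h to 72 h Atp2a2, Pln, Hrc, Jph2 and Trdn fell, 5 members, against 13.5% lower and 29.7% higher. No member passed the test upward in any of these steps, and the differences of Slc8a1 between successive times did not pass. Leaving out 1 h mouse 2 reduced the count from 1 h to 6 h to 1, with Pln lost (adjusted p = 0.0583), and leaving out 6 h mouse 3 raised it to 5. The step of Trdn from 1 h to 6 h was lost without any mouse other than 6 h mouse 3 (adjusted p from 0.0736 to 0.123). The step of Pln from 24 h to 72 h was lost without 72 h mouse 2 or mouse 3 or 24 h mouse 1 or mouse 2 (adjusted p from 0.0689 to 0.0968), and that of Atp2a2 under quantile normalization (adjusted p = 0.055).

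Within some groups the same mouse was lowest or highest in most members. At 24 h mouse 3 had the lowest value of 9 of the 9 members other than Sln, mouse 1 had the highest of 8, and at 6 h mouse 3 had the highest of 9. The share of all genes lowest or highest in the same mouse was not counted, so these counts have no background. The sarcomere genes of 24 h mouse 3 were lowest as well, with a mean log2 difference from sham of -0.78, against -0.40 in mouse 1 and -0.32 in mouse 2. At 6 h the sarcomere level was -0.23 in mouse 3, against -0.30 in mouse 1 and -0.07 in mouse 2. Mouse 1 had the lowest value of 5 members and mouse 2 that of 4. The part of the muscle content of the sample in this order was not tested.

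To set the members beside the muscle cell's contractile genes, the mean log2 level of 12 sarcomere genes of the same mouse (Tnnt2, Tnni3, Tnnc1, Myh6, Myl2, Myl3, Actc1, Mybpc3, Ttn, Tpm1, Actn2 and Myom1) was subtracted from every gene. Against sham this mean differed by -0.20, -0.50 and -1.34 at the 3 later times, and the single sarcomere genes ranged at 72 h from -2.04 for Myl2 to -0.87 for Actc1. The values that follow are changes of this difference against sham, not positions above or below the sarcomere mean. At 72 h the difference was lower than in every sham mouse for Hrc (-0.95, range -1.08 to -0.75), Pln (-0.38, range -0.46 to -0.28) and Atp2a2 (-0.22, range -0.27 to -0.11). It was higher for Slc8a1 (2.10), Camk2d (1.07), Casq2 (0.59), Ryr2 (0.43) and Trdn (0.33), with no overlap between the 72 h and sham mice. The reference is a mean of unequal falls, and single sarcomere genes such as Actc1 fell less than Ryr2 (-0.92) and Trdn (-1.01) did. Jph2 overlapped with sham (0.28, range -0.18 to 0.56). The exact permutation test gives 0.1 at best with 3 against 3 mice, and 0.193 after adjustment over the 27 tests of 9 members at 3 times, so these separations cannot pass it.

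By limma on the same values, 3 members were lower at 72 h (adjusted p of 8.46e-11 for Hrc, 0.00135 for Pln and 0.0355 for Atp2a2) and 6 were higher, against 1.09% of all genes lower and 94.2% higher. The 6 include Sln, which is listed at 0 at 72 h and takes its value from the subtraction, so that 5 remain. These p-values are too small, since the same sarcomere mean of each mouse enters every gene and its error is shared, and nearly all genes were higher, the subtracted mean being itself lower at 72 h. The study's muscle cell markers include Atp2a2, which was left out here because it is a member. With the remaining markers Slc2a4, Cs, Tnnt2 and Pdk2 as the reference, Hrc remained lower, Atp2a2 was at 0.03 (adjusted p = 0.756) and Pln was no longer called. The 72 h call of Atp2a2 was lost without any single mouse other than 72 h mouse 2 (adjusted p from 0.0511 to 0.138), and that of Trdn without 72 h mouse 2 or sham mouse 1 or mouse 3 (from 0.134 to 0.231). Under quantile normalization the changes of Casq2, Jph2 and Trdn relative to the sarcomere mean turned negative (-0.12, -0.44 and -0.49). Jph2 and Trdn were then called lower by limma (adjusted p of 0.0292 and 0.00305). The calls of Ryr2, Camk2d and Atp2a2 were lost, that of Atp2a2 with an adjusted p of 0.0659.

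At 24 h Hrc (-0.78) and Pln (-0.45) were lower relative to the sarcomere genes by limma, with adjusted p of 0.00421 and 0.0253, and Slc8a1 (1.21) and Camk2d (0.46) were higher, with adjusted p of 0.00197 and 0.0355. These are 2 and 2 members, against 1.54% and 64.1% of all genes, and the count of higher members dropped to 1 without any single sham mouse. The count of lower members dropped to 1 without any single sham mouse, or without mouse 2 or mouse 3 at 24 h. At 6 h Pln (-0.41, limma adjusted p = 0.0284) was lower and 0 members were higher, against 3.79% and 14.7% of all genes, a call lost without any single sham mouse or without 6 h mouse 1. Without 6 h mouse 2, 3 members were higher.

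**Figure D4:**
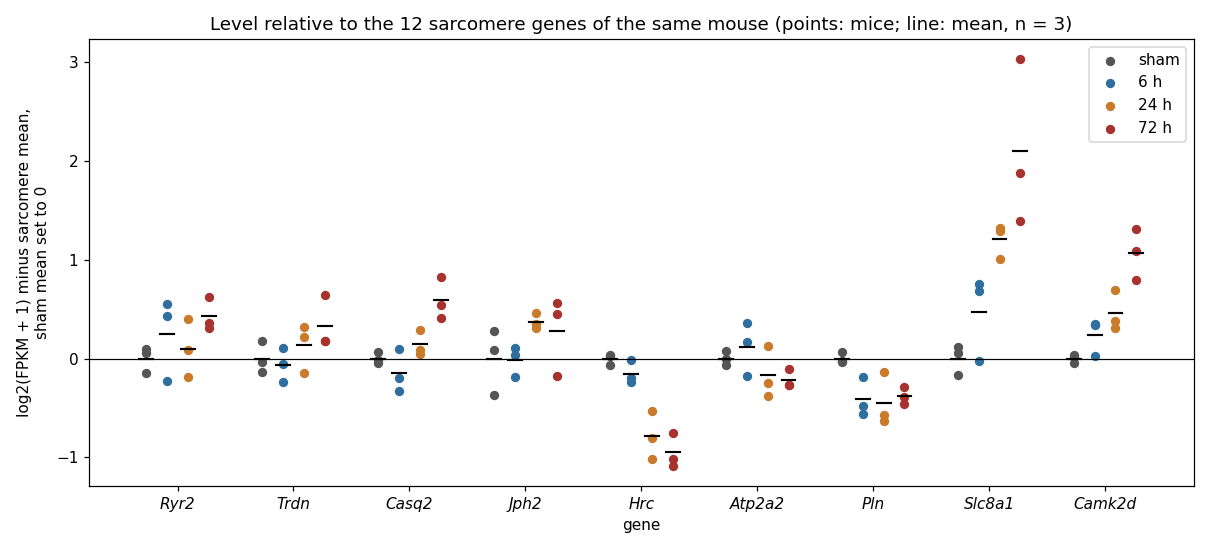
Level of the 9 members other than Sln (horizontal axis) relative to the mean of 12 sarcomere genes of the same mouse, in log2 with the sham mean set to 0 (vertical axis). Points are mice and lines group means. At 72 h the points of Hrc (mean -0.95), Pln (-0.38) and Atp2a2 (-0.22) lie below those of sham, and those of Slc8a1 (2.10) and Camk2d (1.07) lie above.

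Ratios of FPKM within a mouse compared members with each other. Per unit of Atp2a2, Pln was at 0.401 ± 0.00952 (SD, n = 3) in sham, 0.346 ± 0.0302 for 10 min, 0.343 ± 0.0136 for 1 h, 0.279 ± 0.0268 for 6 h, 0.331 ± 0.0219 for 24 h and 0.359 ± 0.00927 for 72 h. The RNA ratio of Pln to Atp2a2 was therefore lower in all 15 AMI mice than in all 3 sham mice, with the lowest values at 6 h. At 10 min and 1 h Pln itself differed from sham by 0.04 and -0.05 and Atp2a2 by 0.26 and 0.18. None of these early differences passed the limma test. The ratio of Slc8a1 to Atp2a2 was higher in all AMI mice, and went from 0.00660 ± 0.000415 in sham to 0.0174 ± 0.00198 at 24 h and 0.0366 ± 0.0202 at 72 h. Camk2d per Atp2a2 went from 0.00380 ± 0.000142 to 0.00919 ± 0.00120 at 72 h, without overlap. Casq2 per Ryr2 was 0.213 ± 0.0139 in sham, 0.163 ± 0.0310 at 6 h and 0.238 ± 0.00887 at 72 h, and Jph2 per Ryr2 overlapped with sham at all 5 times. The smallest exact permutation p (two-sided) that 3 against 3 mice allow is 0.1, reached in 15 of 25 tests, and after adjustment over the 25 tests it was 0.167. No ratio could be formed with Sln.

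Partners of the members were counted beside the 24.2% of all genes that were lower and the 53.1% that were higher at 72 h. Of 14 partners of release, 7 fell and 6 rose at 72 h, and the other, Tmem38b, a cation channel of the store, was at 18.5 FPKM against 18.9 in sham. Tmem38b was higher before that, at 39.0 ± 6.06 FPKM at 6 h with a limma adjusted p of 0.0018. Its 24 h level was 32.0 ± 10.3 FPKM, with an adjusted p of 0.0532. Values in brackets run from sham to 72 h, followed by the log2 fold change and its SE. The falls were led by Tmem38a, which encodes the related channel TRIC-A (197 ± 4.77 to 70.2 ± 8.84 FPKM, -1.48, SE 0.0906), and by Cacna1c, the pore of the L-type channel (16.2 ± 0.505 to 7.76 ± 0.876 FPKM, -0.98, SE 0.0853). The rises were led by Bin1, which shapes T-tubules but is also expressed outside muscle (6.45 ± 0.290 to 38.4 ± 2.52 FPKM, 2.40, SE 0.0726), and Fkbp1b, which encodes FKBP12.6, a protein bound to the release channel (0.780 ± 0.482 to 7.91 ± 0.284 FPKM, 2.36, SE 0.170). Sri, which encodes sorcin, rose as well. The adjusted p of the 13 changed partners in limma ranged from 3.11e-08 to 0.000318.

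Of 9 tested partners of uptake, 7 fell and 1 rose at 72 h, beside the same shares of all genes. S100a1, a calcium sensor that stimulates the pump, fell (1292 ± 82.1 to 526 ± 80.9 FPKM, -1.30, SE 0.119), and so did Prkaca, the catalytic subunit of protein kinase A (197 ± 5.92 to 96.1 ± 9.98 FPKM, -1.03, SE 0.0834). Calr, which encodes the calcium-binding chaperone calreticulin, rose (153 ± 14.8 to 347 ± 32.0 FPKM, 1.17, SE 0.0976). Pde3a, a phosphodiesterase that lowers cyclic AMP near the pump, was called at 10 min, the earliest call of the 4 lists of partners and related genes, at 7.97, 11.3 and 9.49 FPKM against a sham mean of 4.71 (0.88, SE 0.116, limma adjusted p = 0.0378). Without 10 min mouse 3, 0 of all genes were called at 10 min in either direction, so the call of Pde3a was lost too. At 72 h Pde3a was at 4.85 ± 0.840 FPKM (adjusted p = 0.828).

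Related family members had group means of at most 15.8 FPKM in sham. Of 13 listed, 8 passed the filter, and at 72 h 5 fell and 0 rose, beside 24.2% of all genes lower and 53.1% higher. The falls were led by Jph1, the junctophilin of skeletal muscle (8.57 ± 0.591 to 3.02 ± 0.0448 FPKM, -1.25, SE 0.0773), and Camk2a (10.96 ± 0.318 to 4.10 ± 0.752 FPKM, -1.24, SE 0.107). Slc8a2 and Slc8a3, the other exchangers of the family, were at 0.549 and 0.0245 FPKM at 72 h, against 48.2 FPKM of Slc8a1. Atp2a1 and Ryr1, the skeletal muscle forms of the pump and the channel, stayed below 1 FPKM in every mouse.

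Of 17 tested genes of other calcium routes, 9 rose and 2 fell at 72 h, and the rises were near the share of all genes, of which 53.1% were higher and 24.2% lower. The rises were led by Mcub, which encodes the inhibitory subunit of the mitochondrial uniporter and is listed under the older symbol Ccdc109b (1.96 ± 0.614 to 17.2 ± 1.93 FPKM, 2.64, SE 0.156), and Orai2, a store-operated channel of the cell surface (1.10 ± 0.202 to 8.72 ± 0.494 FPKM, 2.21, SE 0.0963). The falls were those of Itpr3, an inositol trisphosphate receptor (8.57 ± 0.606 to 6.89 ± 1.14 FPKM, -0.29, SE 0.110, limma adjusted p = 0.0407), and Smdt1, a uniporter subunit (50.3 ± 0.618 to 42.5 ± 2.88 FPKM, -0.24, SE 0.0674, adjusted p = 0.0107). The call of Itpr3 was lost when each mouse was rescaled to the same FPKM sum (adjusted p = 0.12). Under median-of-ratios scaling 8 of these genes were higher and 6 lower, with the rise of Stim1 lost, and under quantile normalization 5 were higher and 8 lower, with the rises of Stim2, Orai1 and Orai3 lost as well, so that the balance turned under quantile normalization.

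**Figure D5:**
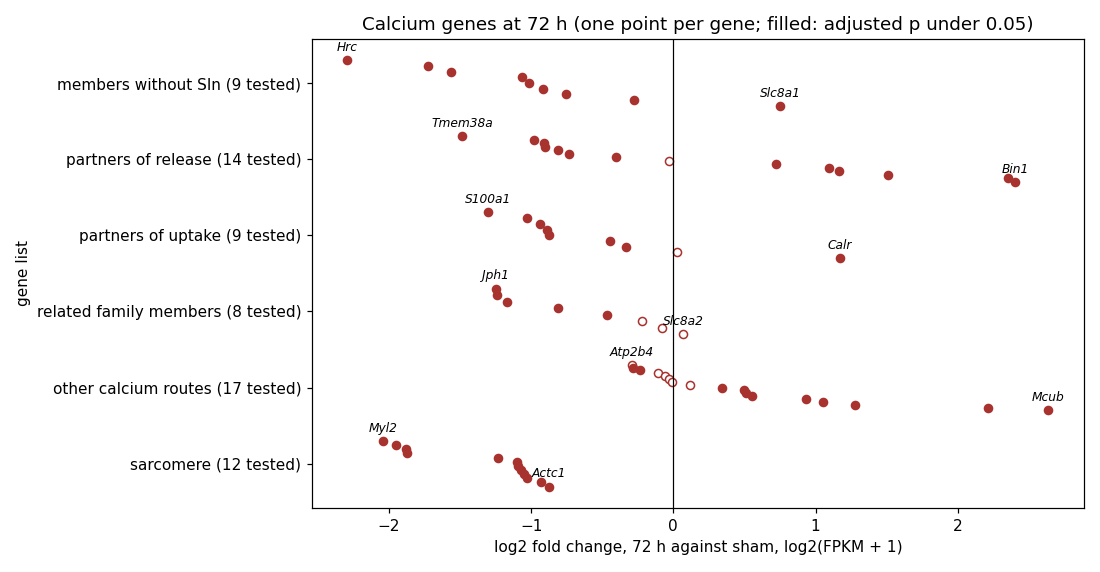
Log2 fold change at 72 h against sham (horizontal axis) of each tested gene in 6 lists (vertical axis). Points are genes, filled where the adjusted p was under 0.05, and the outermost gene of each list is named. Members, uptake partners and sarcomere genes lie mostly left of 0, with Hrc at -2.29 and Myl2 at -2.04, and the other calcium routes lie on both sides of it, with Mcub at 2.64.

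For each member the genes with the nearest course were found by the root mean square difference of the 5 log2 fold changes against sham, over 13332 other genes. For Atp2a2 they were Acsl1 (0.0384), which activates fatty acids, Tmem82 (0.0954) and Etfdh (0.0989). Pln lay nearest to Txlnb (0.069), Mtfp1 (0.0776) and Syt7 (0.0857), and Hrc to Tcea3 (0.102), Rpl3l (0.114) and Dhrs7c (0.16). For Ryr2 the nearest were Tmem179 (0.0946), Ppm1l (0.113) and Pank1 (0.119), and for Jph2 3110057O12Rik (0.0896), Ak4 (0.0909) and Usp13 (0.103). Tmem179 went from 1.35 FPKM in sham to 0.384 at 72 h, a low level at which log2(FPKM + 1) understates the change. Casq2 was closest to Lyrm7 (0.0477), Osbpl1a (0.0542) and Bcs1l (0.0597), and Trdn to Zfp106 (0.0532), Pdhx (0.0549) and Dld (0.0573). Camk2d was nearest to 1700096K18Rik (0.0335), Zfp609 (0.0449) and Huwe1 (0.0532). Slc8a1 was nearest to Npcd (0.05), D630045J12Rik (0.111) and Canx (0.115), of which Npcd and D630045J12Rik had sham means below 1 FPKM. The values for Sln (Hist2h2aa2, Csf2 and Serpina3c, from 0.106 to 0.125) rest on the single mouse at 6 h. The 5 fold changes share the sham mice, and likeness of this kind is a description.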

How the data were processed

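Gene expression was measured in heart tissue of 18 mice by paired-end sequencing of polyadenylated RNA, 150 bases per read. According to the submitters' processing notes and the methods, reads were trimmed with cutadapt 1.18, mapped to mm10 with HISAT2 2.1.0 and summarised by StringTie 1.3.4d. The gene annotation and the strand setting are not given in the sources used here. The FPKM values of 24419 genes were estimated by the authors and deposited as a single table, with 1 column per mouse, each matched to its mouse by name. Read counts were not used here; FPKM sums were 542418 to 600467 per mouse, and the depth relative to sham mouse 1, read from ratios of values at or below 0.3 FPKM, was 0.813 to 1.32.

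Groups followed the sample titles, and the control group is called sham as in the study's results section. Genes with at least 1 FPKM in at least 1 mouse were kept and log2(FPKM + 1) was compared with limma 3.58.1 (R 4.3.3; eBayes with a variance trend, two-sided) between groups of 3 mice, with p-values adjusted over every tested gene after Benjamini and Hochberg. A fold change on this scale understates the change of genes with low FPKM. Ratios between members and levels relative to the sarcomere genes were compared by an exact two-sided permutation test. The members, the lists of partners, family members, other calcium routes and cell type markers, and the tests were chosen with earlier results of these data known. All members are named. Of each list of partners or related genes, up to 2 of the largest rises and 2 of the largest falls at 72 h past an adjusted p of 0.05 are named with values, and any called at 10 min or 1 h, and for each member the 3 genes of nearest course. Tmem38b, Sri, Slc8a2, Slc8a3, Atp2a1, Ryr1 and the 4 store-operated genes were named after their values were seen. A listed partner is not reported by name here.

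Alternatives were other filters, a pseudocount of 0.1, 3 other scalings, a fit of all 18 mice, no variance trend, the replicate number as a block, another reference list and leaving out each mouse. List counts under other scalings and relative counts without Sln were added after seeing the data. The test was checked on simulated data. Coordinates and coding sequences are from mm10 with GENCODE M21, promoter windows from RefSeq (GRCm38.p6). Python 3.11.15, numpy 2.4.6 and matplotlib 3.10.9 were used for sequences and figures.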

Additional observations from a re-analysis of the deposited data

Results flagged for a closer look

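Changes between successive times after ligation are given here because they differ within the AMI course itself, by limma's test of the difference. From 1 h to 6 h the log2 difference was -0.56 for Pln, -0.46 for Jph2 and -0.36 for Trdn. From 6 h to 24 h it was -0.93 for Hrc. From 24 h to 72 h it was -0.89 for Atp2a2, -0.77 for Pln, -1.01 for Hrc, -0.94 for Jph2 and -0.64 for Trdn. These 9 steps are listed because they passed the test, and all were falls. Of all genes tested, 11.2% were lower and 9.32% higher from 1 h to 6 h. The same shares were 1.94% and 12.5% from 6 h to 24 h, and 13.5% and 29.7% from 24 h to 72 h. From 1 h to 6 h the limma adjusted p was 0.0115 for Pln, 0.00788 for Jph2 and 0.0359 for Trdn. For Hrc it was 0.0261 from 6 h to 24 h. From 24 h to 72 h it was 0.0109 for Atp2a2, 0.0274 for Pln, 0.0105 for Hrc, 0.00484 for Jph2 and 0.00723 for Trdn. Where leaving out a mouse lost one of these calls, the mice are given above.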

How the results depend on the processing

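With 3 mice a group, many calls lay near the threshold, and the cause of the following changes was not tested. Members higher at 10 min numbered 2 with the mean FPKM filter, 1 with the same FPKM sum and 1 after quantile normalization, against 0. Members lower at 6 h numbered 1 without a filter, 1 by median-of-ratios and 1 with the replicate block, against 3. The member higher at 72 h became 0 without a filter, 0 by median-of-ratios and 0 after quantile normalization. From 1 h to 6 h, 5 were lower with the same FPKM sum and 5 after quantile normalization, against 3. From 6 h to 24 h, 0 were lower without a filter, 0 with the replicate block and 3 with all 18 mice in one fit, against 1. From 24 h to 72 h, 8 were lower by median-of-ratios and 8 with all 18 mice, against 5.

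Relative to the sarcomere genes, without a variance trend 0 were lower at 6 h and 1 at 24 h, against 1 and 2. Members higher at 24 h numbered 4 without a filter, 1 after quantile normalization, 1 with the replicate block and 5 with the study's markers without Atp2a2, against 2. At 72 h 1 was lower with the study's markers, against 3, and 2 were higher after quantile normalization, against 6. Reversed at 72 h were Atp2a2 with the study's markers (0.0295) and, after quantile normalization, Casq2 (-0.12), Jph2 (-0.44) and Trdn (-0.49). Of the listed genes at 72 h, the related family members lower numbered 8 after quantile normalization, against 5, and those of other calcium routes lower numbered 1 with the same FPKM sum, 6 by median-of-ratios and 8 after quantile normalization, against 2, with 5 higher after quantile normalization, against 9.

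Leaving out a mouse at a time gave 1 to 4 members lower and 0 to 1 higher at 6 h, 1 to 6 lower at 24 h, 0 to 1 higher at 72 h, 1 to 5 lower from 1 h to 6 h and 0 to 2 from 6 h to 24 h. Relative to the sarcomere genes it gave 0 to 1 lower and 0 to 3 higher at 6 h, and 1 to 3 lower and 1 to 2 higher at 24 h. The count of 8 lower at 72 h stayed at 8.

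Scaling moved the balance of all genes. The share of called genes that were higher was 71.7% at 10 min (58.3% by median-of-ratios, 59.3% by quantile), 40.9% at 6 h (54.8% by median-of-ratios), 69.8% at 24 h (50.3% and 43.6%) and 68.7% at 72 h (52.1% and 42.5%). By steps it was 65.0% from 10 min to 1 h (76.9% by median-of-ratios), 45.4% from 1 h to 6 h (56.6%), 86.6% from 6 h to 24 h (52.3% and 57.3%) and 68.8% from 24 h to 72 h (54.0% and 44.8%). Relative to the sarcomere genes it was 97.7% at 24 h and 98.9% at 72 h (78.6% and 86.0% by quantile).

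Mice share only a replicate number: deviations of same-numbered mice correlated at a median r of -0.017 over 45 pairs, against 0.016 for other pairs, and 5 of 18 mice correlated best with their own number.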
